A study of Arabidopsis thaliana with 18 samples.

Results

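The expression profile of the seed coat and endosperm of *myb107-2* seeds kept in the cold for 48 h was compared with that of *myb107-2* seeds taken just before the transfer. The comparison used the 6 *myb107-2* libraries among the 18 of the series, chosen by genotype and treatment label. Of these, 3 came from seeds at 11 days after pollination (DAP) from plants grown at 22 °C (11 DAP) and 3 from seeds whose plants were moved at 11 DAP to 13 °C for 48 h (11 DAP+Cold). The temperatures are those of the labels. The study's main text gives a lower temperature than 13 °C for this transfer. Its supplementary methods give a range for the cold chamber that includes 13 °C. The *myb107-2* line carries a T-DNA insertion in *MYB107* in the Col background, and it was the only *myb107* allele among these libraries. For comparison, 3 groups of 3 WT Col libraries were used, namely 11 DAP at 22 °C, 11 DAP+Cold at 13 °C for 48 h, and 13 DAP at 22 °C. A further 3 WT Col libraries, moved at 11 DAP to 13 °C for 6 h, entered the fit behind the 13 DAP results. They also entered the scaling of levels, which used all 18 libraries. Each sample pooled siliques of several plants, and the embryo was removed by hand, so that each library holds the seed coat together with the endosperm. Seeds at 11 DAP+Cold were also 2 days older than seeds at 11 DAP. No *myb107-2* library at 13 DAP was analysed here, and within *myb107-2* the effect of cold and that of age cannot be told apart.

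MYB107 is a transcription factor of the R2R3 family that promotes the deposition of suberin, a polyester of fatty acids, glycerol and ferulate, in the outer integument of the seed coat. Suberin and the polyphenols of the seed coat limit the movement of water, oxygen and solutes into the seed, and they are laid down while the seed matures. In the same period the endosperm and the seed coat accumulate or mobilize reserves, chloroplasts of the seed coat lose their photosynthetic function, and several cell layers die in a programmed order. In vegetative tissues, cold acts mainly through the CBF transcription factors, which bind the CRT/DRE element in front of cold-regulated genes, and through the circadian clock. In the mother plant, low temperature during seed maturation deepens the dormancy of the progeny.

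The *myb107-2* libraries held 59.3 M to 80.7 M counts at 11 DAP and 61.1 M to 66.3 M at 11 DAP+Cold. Levels are given as CPM, that is counts scaled to a common library size with TMM factors, on which scale the detection limit of 3 counts lay at 0.0315 to 0.0529. Correlation of log2 levels over 17188 genes lay between 0.971 and 0.982 within 11 DAP, between 0.979 and 0.983 within 11 DAP+Cold and between 0.916 and 0.934 across the groups. One WT library at 13 DAP held 46.7% of its counts in ribosomal RNA genes, against 5.96% to 16.4% in the other 17. *MYB107* (chromosome 3, 661849 to 664011, plus strand in TAIR10) was at 2.37, 2.82 and 3.84 CPM at 11 DAP and 5.71, 4.15 and 3.79 CPM at 11 DAP+Cold in *myb107-2*, ranges that overlap (log2 fold change 0.59, SE 0.26, adjusted p = 0.14). These means are 8.77% and 8.65% of those of WT, which were 34.3 ± 6.36 CPM and 52.6 ± 9.27 CPM (SD, n = 3).

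Markers of the labelled tissues were present in all 6 libraries. Of 9 seed coat markers, 8 reached 1 CPM, and their summed level was 2822 to 3649 CPM at 11 DAP and 1768 to 1945 CPM at 11 DAP+Cold. Most of this difference came from *AT3G20210*, the delta vacuolar processing enzyme, without which the sums were 1723 to 2585 CPM and 1583 to 1794 CPM. Of 8 endosperm markers, 6 reached 1 CPM, and without the abundant *EPR1* their sum was 115 to 130.3 CPM at 11 DAP and 157 to 159 CPM at 11 DAP+Cold. The early endosperm genes *FIS2* and *FWA* stayed under 1 CPM in all 6 libraries. Of 13 embryo meristem and patterning genes, 2 reached 1 CPM, 4 were at 0 in every library, *WUS*, *CLV3*, *STM* and *CUC2*, and none was called. Their summed level was 26.5 to 34.3 CPM at 11 DAP and 37.9 to 41.8 CPM at 11 DAP+Cold, and the part of embryo RNA in the results below was not tested. In these dissected tissues, fewer cells of a type and less RNA per cell cannot be told apart.

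Of 26068 genes tested with edgeR's quasi-likelihood test, 1080 were called higher at 11 DAP+Cold than at 11 DAP in *myb107-2* (4.14% of genes tested) and 998 were called lower (3.83%), where a call requires that the adjusted p does not exceed 0.05 and that the level differs at least 2-fold, a log2 fold change of 1 in either direction. The median log2 fold change was 1.77 among the genes called higher (quartiles 1.31 and 2.84) and -1.68 among those called lower (quartiles -2.55 and -1.24), and it was 0.00 over all genes. Among the groups with the most calls for their size were genes of cell death, storage proteins, suberin and the clock, which were called higher, and genes of photosynthesis, which were called lower, while the flavonoid and proanthocyanidin list had calls in both directions. The 3 libraries of one group lay entirely above those of the other for 1062 of the 1080 and for 982 of the 998, against 16.7% and 16.2% of all genes tested. The calls were made on the same 6 libraries, so this separation is no separate support for them. When each of the 6 libraries was left out in turn, between 931 and 1046 genes were called higher and between 838 and 1003 lower, and 740 and 620 genes, respectively, were called in all 6 fits. The labels do not say that libraries of a group came from separate batches of plants, and the p-values measure the spread between these libraries.

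The 10 genes called higher with the smallest p included several metabolic enzymes. They, and the genes called lower with the smallest p, were picked only among genes whose groups do not overlap. *CSY1*, which encodes a peroxisomal citrate synthase (chromosome 3, 21720773 to 21723790, minus strand), was at 584, 569.6 and 635 CPM at 11 DAP and 3231, 3206 and 3514 CPM at 11 DAP+Cold (log2 fold change 2.47, SE 0.15, adjusted p = 8.5e-08). *SUS6*, a sucrose synthase that cleaves sucrose to UDP-glucose and fructose, was at 7.14, 6.92 and 9.55 CPM at 11 DAP and 65.6, 70.8 and 78.2 CPM at 11 DAP+Cold (log2 fold change 3.18, SE 0.19, adjusted p = 6.8e-08). *HMT3*, a homocysteine S-methyltransferase that forms methionine, was close to 1 CPM before the transfer, at 0.965, 0.653 and 1.17 CPM, and reached 14.7, 19.9 and 19.6 CPM (log2 fold change 4.26, SE 0.27, adjusted p = 8.5e-08). *PYD4*, an enzyme annotated to pyrimidine breakdown, rose from 58.9, 66.6 and 65.1 CPM to 534, 410.0 and 489 CPM (log2 fold change 2.90, SE 0.18, adjusted p = 8.5e-08). *AT1G64710*, of the zinc-binding alcohol dehydrogenase family, rose from 6.50, 6.48 and 8.07 CPM to 47.3, 38.6 and 38.4 CPM. For each of these genes, the lowest cold library lay several times above the highest library at 11 DAP.

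*ASD2*, an alpha-L-arabinofuranosidase that removes arabinose from cell wall polysaccharides, had one of the smallest p-values of all (chromosome 5, 9121675 to 9125967, minus strand). It was at 23.4, 30.3 and 29.1 CPM at 11 DAP and 351, 288 and 339.9 CPM at 11 DAP+Cold (log2 fold change 3.56, SE 0.19, adjusted p = 4.5e-08). *AT5G48510*, which encodes a protein with a BTB/POZ domain, was nearly silent at 11 DAP, at 0.241, 0.239 and 0 CPM, and was at 14.9, 15.3 and 14.0 CPM after the cold (log2 fold change 6.44, SE 0.41, adjusted p = 4.5e-08). In WT it was at 0.572 CPM on average in the cold and 0.113 CPM at 13 DAP, but the difference between the genotypes in the size of the change did not pass the test (4.34, SE 1.26, adjusted p = 0.23). *AT2G05910*, of the LURP-one-like family, rose from 15.4, 18.9 and 20 CPM to 193, 141 and 166 CPM, and the uncharacterized *AT1G54575* rose from 114, 105 and 108 CPM to 430.0, 410.4 and 412 CPM. The 3 cold libraries of *AT1G54575* lay close together.

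Several genes went from no detected count at 11 DAP to a clear level in the cold, and for these a fold change is given as a lower bound against 3 counts in each library. *AT2G43880*, a pectin lyase-like protein, was at 0 in all 3 libraries at 11 DAP and at 86.3, 66.7 and 68.3 CPM at 11 DAP+Cold, at least 1797-fold higher. *AT3G04180*, of the cupin superfamily, went from 0 to 62.5, 32.7 and 62.1 CPM, at least 1277-fold higher. The hydroxyproline-rich glycoprotein gene *AT2G22510* reached 44.2, 12.8 and 49.8 CPM and the peroxidase gene *AT1G68850* reached 16.1, 5.70 and 26.3 CPM, at least 867-fold and 390.2-fold higher, respectively. Replicate 2 at 11 DAP+Cold was the lowest of the 3 for all of these genes, and for *AT1G68850* it was well below both others. The oleosin family gene *AT2G25890* was listed at 0 at 11 DAP and at 43, 34.9 and 41.0 CPM at 11 DAP+Cold. This gene overlaps *AUR2* on the other strand, and the counts of *AUR2* moved the opposite way, from 19.2, 23.4 and 25.5 CPM to 11.5, 9.10 and 10.3 CPM. In WT, *AT2G25890* was at 8.28, 26.0 and 0 CPM at 11 DAP, 11 DAP+Cold and 13 DAP, and *AUR2* at 9.86, 11.7 and 93.1 CPM. Whether reads were assigned by strand is not given in the sources used here, and both genes are uncertain. The same holds, with no such opposite movement looked for, for the other genes described here that overlap a gene on the other strand, which are *TBL38*, *AT1G64710*, *AT5G14450*, *COR15B*, *DREB2A*, *FKF1*, *HSP101*, *MYB9*, *ASFT*, *CCR1*, *CHS*, *F3H*, *OLEO1*, *OLEO2*, *LEA7*, *RAB18*, *MFT*, *LHCB1.3*, *KNOLLE*, *SCPL48*, *AT3G20210* and *GDH3*.

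Several of the genes called lower with the smallest p encode proteins of the cell wall or of membranes. *GAMMA-TIP*, which encodes a water channel of the vacuole membrane (chromosome 2, 15445294 to 15446621, plus strand), fell from 155, 199.6 and 99.2 CPM to 2.96, 2.69 and 1.71 CPM (log2 fold change -5.97, SE 0.35, adjusted p = 6.8e-08). *TBL38*, of the family of wall polysaccharide acetyltransferases, had the smallest p of all genes and was at 57.7, 60.8 and 50.4 CPM at 11 DAP and 4.00, 4.21 and 5.67 CPM at 11 DAP+Cold (log2 fold change -3.61, SE 0.17, adjusted p = 2.7e-08). *AT5G49180*, of the invertase and pectin methylesterase inhibitor superfamily, fell from 229.8, 234 and 187 CPM to 7.92, 11.2 and 10 CPM (log2 fold change -4.48, SE 0.26, adjusted p = 6.8e-08). The peroxidase gene *PA2* fell from 52.0, 69.0 and 39.4 CPM to 1.89, 2.96 and 3.58 CPM, and *ENODL4*, an early nodulin-like protein, from 135, 123 and 98.9 CPM to 10.7, 8.83 and 13.3 CPM. *GILT*, a thiol reductase of the lysosomal type, fell from 33.4, 44.5 and 43.5 CPM to 1.80, 1.09 and 2.35 CPM. All of these genes had cold libraries well below the lowest library at 11 DAP. The uncharacterized *AT3G09950* fell from 137, 152 and 109 CPM to 9.98, 12.6 and 11.8 CPM, and the GDSL lipase gene *AT5G14450* from 21.3, 23.4 and 18 CPM to 1.94, 2.59 and 2.30 CPM. *XTH9*, a xyloglucan endotransglucosylase of growing walls, varied more before the transfer, at 22.1, 12 and 4.98 CPM, and was at 0.935, 0 and 0.649 CPM in the cold (log2 fold change -4.73, SE 1.11, adjusted p = 0.0071).

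**Figure D1:**
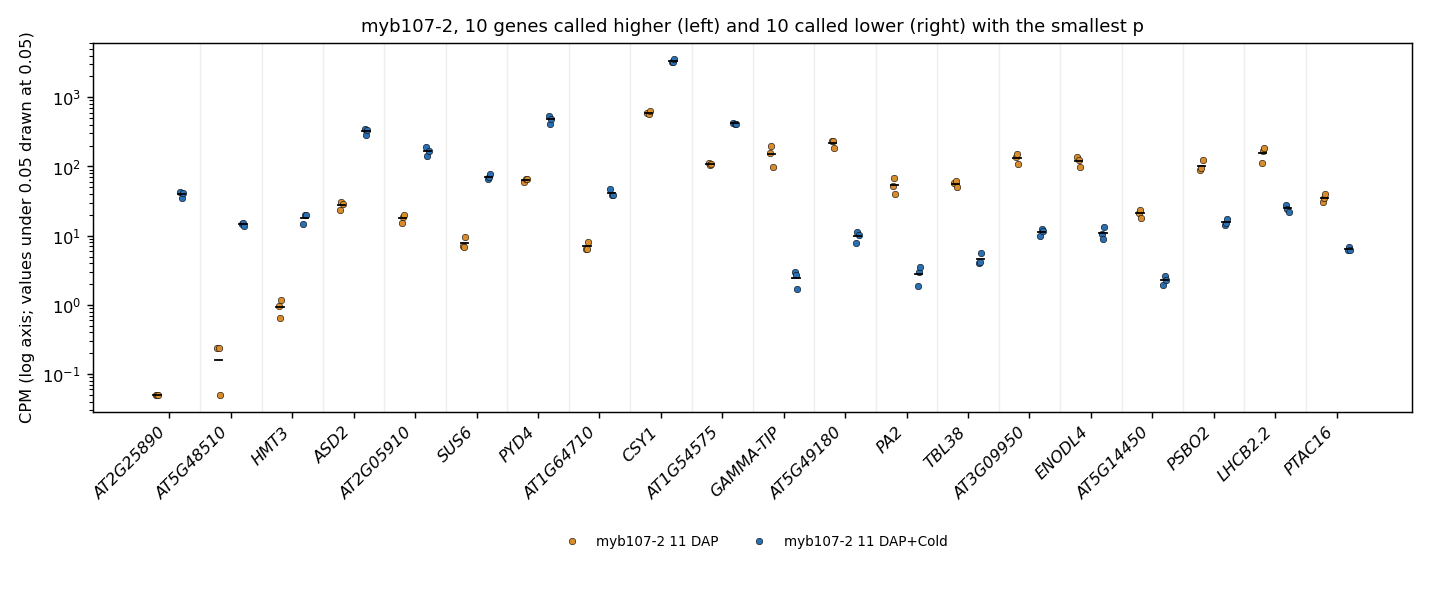
Levels in CPM (log axis) of the 10 genes called higher and the 10 genes called lower with the smallest p in *myb107-2*. Each point is 1 library, 3 at 11 DAP and 3 at 11 DAP+Cold, bars are means, and values under 0.05 CPM are drawn at 0.05. The 20 genes were picked only among called genes whose groups do not overlap and whose higher group has a mean of at least 10 CPM. In the cold, *CSY1* is at 3206 CPM or more and *GAMMA-TIP* at 2.96 CPM or less.

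The classical cold response was represented by 27 genes, the CBF factors and their targets. Of these, 6 were called higher and none lower, 22.2% against 4.14% of all genes, with a median log2 fold change of 0.90 against 0.00 over all genes (0.84 with genes near 0 at their bound). In WT, 12 of the 27 were called higher and 1 lower at 11 DAP+Cold, and 7 higher and 3 lower at 13 DAP without cold. All 6 calls in *myb107-2* held when any 1 of the 6 libraries was left out. Promoters of 3 of the 4 with the smallest p are printed here, together with those of the 2 genes called lower with the smallest p. They were searched for the elements that bind CBF and clock proteins. The 3 printed from the cold list held no CRT/DRE core. Each line gives the 250 bases in front of the annotated gene start, 5′ to 3′ on the strand of the gene, from the RefSeq sequence of TAIR10. Capitals mark matches on either strand to the CRT/DRE core CCGAC, the ABRE core ACGTG (which is also part of the G-box CACGTG) and the evening element AATATCT.
AT4G33980: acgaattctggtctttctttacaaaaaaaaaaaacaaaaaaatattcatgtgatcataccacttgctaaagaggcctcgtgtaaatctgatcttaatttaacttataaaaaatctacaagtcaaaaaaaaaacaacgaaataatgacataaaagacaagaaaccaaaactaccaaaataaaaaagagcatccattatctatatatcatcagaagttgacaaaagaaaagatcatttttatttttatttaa
KIN2: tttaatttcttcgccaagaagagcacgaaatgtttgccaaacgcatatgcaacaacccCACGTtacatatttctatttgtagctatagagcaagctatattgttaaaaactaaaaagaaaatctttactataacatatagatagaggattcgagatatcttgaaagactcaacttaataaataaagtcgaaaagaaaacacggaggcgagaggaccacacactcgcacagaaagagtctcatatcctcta
KIN1: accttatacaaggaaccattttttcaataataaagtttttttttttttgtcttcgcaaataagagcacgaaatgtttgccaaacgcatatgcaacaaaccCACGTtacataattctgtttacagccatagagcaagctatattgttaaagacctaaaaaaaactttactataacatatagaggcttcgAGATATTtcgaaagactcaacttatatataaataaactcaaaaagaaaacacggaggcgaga
TBL38: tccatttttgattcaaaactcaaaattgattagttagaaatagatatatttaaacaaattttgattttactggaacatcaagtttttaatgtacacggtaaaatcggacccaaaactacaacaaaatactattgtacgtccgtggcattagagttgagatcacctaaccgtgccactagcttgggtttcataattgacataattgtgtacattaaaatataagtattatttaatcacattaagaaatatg
AT5G14450: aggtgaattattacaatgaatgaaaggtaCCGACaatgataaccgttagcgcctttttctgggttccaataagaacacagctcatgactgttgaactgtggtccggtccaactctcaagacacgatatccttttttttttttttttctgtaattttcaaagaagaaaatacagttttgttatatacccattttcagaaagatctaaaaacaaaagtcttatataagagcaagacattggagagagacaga
The windows are chr4:16285230-16285479, minus strand for *AT4G33980*, chr5:5211469-5211718, plus strand for *KIN2*, chr5:5209467-5209716, plus strand for *KIN1*, chr1:10139229-10139478, minus strand for *TBL38* and chr5:4658191-4658440, plus strand for *AT5G14450*. None of these windows overlaps an annotated exon.

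*COR27*, a repressor that links cold to the clock, was called higher, and its level was 7.0, 7.82 and 10.6 CPM at 11 DAP and 29.9, 23.4 and 27 CPM at 11 DAP+Cold (log2 fold change 1.65, SE 0.17, adjusted p = 5.8e-06). *AT4G33980*, annotated as an uncharacterized protein, held no match in its window, and it was at 1.29, 1.59 and 2.52 CPM at 11 DAP and 19.4, 19.0 and 19.3 CPM at 11 DAP+Cold (log2 fold change 3.44, SE 0.24, adjusted p = 1.9e-07). *KIN1* and *KIN2*, neighbouring genes for small hydrophilic stress proteins, each held 1 ABRE core, and *KIN1* also held 1 evening element. *KIN2* was at 0.587, 1.54 and 0.893 CPM at 11 DAP and 265, 79.7 and 286 CPM at 11 DAP+Cold (log2 fold change 7.77, SE 0.94, adjusted p = 3.1e-05). *KIN1* was at 0.105, 0 and 0 CPM at 11 DAP and 40.9, 6.94 and 68.1 CPM at 11 DAP+Cold (log2 fold change 9.71, SE 1.25, adjusted p = 4.2e-05). Both genes were far above 11 DAP in every cold library, and replicate 2 was the lowest of the 3 by a wide margin. In WT, *KIN2* was at 24.0 CPM at 11 DAP+Cold and at 954 CPM at 13 DAP without cold, and *KIN1* was at 2.70 CPM and 503 CPM. *COR27* was at 22.7, 21.6 and 22.1 CPM in WT at 11 DAP+Cold and 28.9, 25.2 and 24.1 CPM at 13 DAP. *AT4G33980* was at 11.9, 11.8 and 17.7 CPM and 14.5, 14.7 and 10.4 CPM in the same WT groups.

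The CCGAC core was found in 12.8% of the promoters of genes called higher in *myb107-2* and in 10.6% of those called lower, against 12.4% of the promoters of the 26067 genes tested with a window. The ABRE core was found in 34.7% of the higher genes and 24.1% of the lower genes, against 22.3% of all promoters. The G-box was found in 12.3% and 7.31%, against 6.53%, and the evening element in 12.7% and 12%, against 9.66%. Among the 27 genes of the cold list, 33.3% held CCGAC and 44.4% ACGTG. Of the printed promoters called lower, that of *AT5G14450* held 1 CCGAC core and that of *TBL38* no match.

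The CBF factors themselves were low at 48 h, and none was called. *CBF2* was at 8.71, 10.9 and 12 CPM at 11 DAP and 16.8, 23.0 and 14.5 CPM at 11 DAP+Cold (log2 fold change 0.78, SE 0.23, adjusted p = 0.027). *CBF1* was at 8.35, 10.3 and 12.3 CPM at 11 DAP and 12.5, 16.2 and 11.2 CPM at 11 DAP+Cold, and *CBF3* stayed under 1 CPM in all 6 libraries. *COR15A*, which encodes a chloroplast cryoprotectant, was at or near 0 in every library, and its relative *COR15B* was at 0 at 11 DAP and at 1.45, 0.987 and 0.465 CPM at 11 DAP+Cold, at least 23.5-fold higher. *RD29A*, another classical target, was at 4.06, 6.43 and 6.49 CPM and 3.00, 2.99 and 4.27 CPM. *LTI30*, a dehydrin, rose from 3.17, 5.94 and 6.37 CPM to 15.5, 17.1 and 12.8 CPM (log2 fold change 1.57, SE 0.23, adjusted p = 0.00013). The 4 most abundant members that were not called were *ERD10*, *ZAT10*, *ZAT12* and *ICE1*, of which the zinc finger gene *ZAT10* was at 252, 306 and 287 CPM at 11 DAP and 563, 621 and 432 CPM at 11 DAP+Cold (log2 fold change 0.93, SE 0.17, adjusted p = 0.0011), short of the fold change limit. *CBF1*, *CBF2*, *CBF3*, *COR15A* and *RD29A* are named as the best known members of this list, chosen after their values were seen. *DREB2A*, a related factor listed with the heat shock genes, rose from 13.5, 14.6 and 19.2 CPM to 90.0, 112 and 84.7 CPM (log2 fold change 2.59, SE 0.30, adjusted p = 2.1e-05). In WT it was at 15.8 CPM at 11 DAP, 118 CPM at 11 DAP+Cold and 33.6 CPM at 13 DAP.

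Of 6 cold shock domain and glycine-rich RNA-binding protein genes, 1 was called higher (16.7% against 4.14%). *GRP7*, an RNA-binding protein under clock control, rose from 95.1, 107 and 122 CPM to 440.3, 449.6 and 463 CPM (log2 fold change 2.05, SE 0.16, adjusted p = 5.7e-07). Its relative *GRP8* was at 243 ± 40.6 CPM and 424 ± 23.0 CPM (SD, n = 3), short of the limit at a log2 fold change of 0.80 (SE 0.19, adjusted p = 0.0086). The RNA chaperone genes *CSP2*, *CSP3* and *CSP4* had log2 fold changes of 0.12, -0.21 and 0.35, and none was called.

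The clock keeps daily time through feedback between morning and evening factors, and cold changes its rhythm in leaves. Of 20 members, 8 were called higher and none lower, 40.0% against 4.14% of all genes, and the 8 calls held with any library left out. Of the 20 promoters, 50% held the evening element and 65.0% the ABRE core. The morning factors *LHY* and *CCA1* rose from 39.5, 18.7 and 19.3 CPM to 77.8, 93.9 and 99.2 CPM (log2 fold change 1.78, SE 0.25, adjusted p = 0.0001) and from 16.1, 8.07 and 6.42 CPM to 43.4, 38.9 and 37.0 CPM (log2 fold change 1.92, SE 0.31, adjusted p = 0.00038). Replicate 1 at 11 DAP was the highest of its group for both. Genes that act in the afternoon and evening rose as well. *PRR5*, a repressor of *CCA1* and *LHY*, went from 1.69, 2.39 and 2.87 CPM to 9.08, 8.33 and 11.4 CPM (log2 fold change 2.07, SE 0.24, adjusted p = 1.6e-05). *FKF1*, a blue light receptor of the photoperiod pathway, went from 1.84, 0.955 and 1.99 CPM to 7.60, 8.47 and 8.73 CPM (log2 fold change 2.34, SE 0.24, adjusted p = 6.2e-06). *ELF4*, a part of the evening complex, was low throughout and went from 0.238 CPM to 2.53 CPM on average. *CDF1*, a repressor of flowering that FKF1 degrades, went from 3.26 CPM to 10.4 CPM. *GI* was at 39.2, 31.7 and 30.5 CPM at 11 DAP and 46.0, 48.1 and 54.4 CPM at 11 DAP+Cold (log2 fold change 0.54, SE 0.14, adjusted p = 0.013), and *GI*, *PRR7*, *LNK1* and *LNK2*, the most abundant of the uncalled members, all stayed under the fold change limit. The hour of harvest of each group is not given in the sources used here, and its part in the levels of clock genes was not tested.

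In WT, *LHY* had mean levels of 71.7 ± 17.9 CPM before and 91.7 ± 7.90 CPM after the cold (SD, n = 3), and of 7.99 CPM at 13 DAP. *CCA1* was at 30.9, 55.5 and 6.18 CPM in the same groups. The *myb107-2* libraries at 11 DAP were thus at 36.0% of WT for *LHY* and 32.9% for *CCA1*, and those at 11 DAP+Cold at 98.4% and 71.6%. The difference between the genotypes in the change did not pass the test for either gene (adjusted p = 0.11 and 0.52). Of the 20 clock genes, 6 were called higher and none lower in WT at 11 DAP+Cold. At 13 DAP without cold, 4 were called higher and 2 lower in WT.

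Of 11 heat shock genes tested, 4 were called higher and 1 lower (36.4% and 9.09%, against 4.14% and 3.83% of all genes), and 5 of the 11 were under 1 CPM in every library. *HSP101*, a chaperone that dissolves protein aggregates, rose from 75.8, 73.6 and 54.9 CPM to 131, 207 and 207 CPM (log2 fold change 1.40, SE 0.30, adjusted p = 0.0033). *HSFA2*, a heat shock factor, rose from 3.57, 3.88 and 3.11 CPM to 10.8, 16.0 and 21.9 CPM (log2 fold change 2.2, SE 0.43, adjusted p = 0.002). The call of *HSP17.4* and that of *HSP90.1*, the one that was lower, were each lost in 5 of the 6 fits with 1 library left out, in which the adjusted p reached 0.1 for *HSP17.4* and 0.15 for *HSP90.1*. Of the 11 heat shock genes, WT had 1 called higher and 1 lower at 11 DAP+Cold, and 1 higher and none lower at 13 DAP. In *myb107-2*, none of 10 fatty acid desaturase genes and none of 14 ribosome biogenesis genes was called, and the median log2 fold changes of these lists were -0.03 and -0.01. *FAD2*, the main desaturase of seed oil, was at 751 ± 93.2 CPM and 669 ± 84.9 CPM (SD, n = 3), and *FAD3*, which forms linolenic acid, at 69.0 ± 13.1 CPM and 97.9 ± 6.43 CPM.

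**Figure D2:**
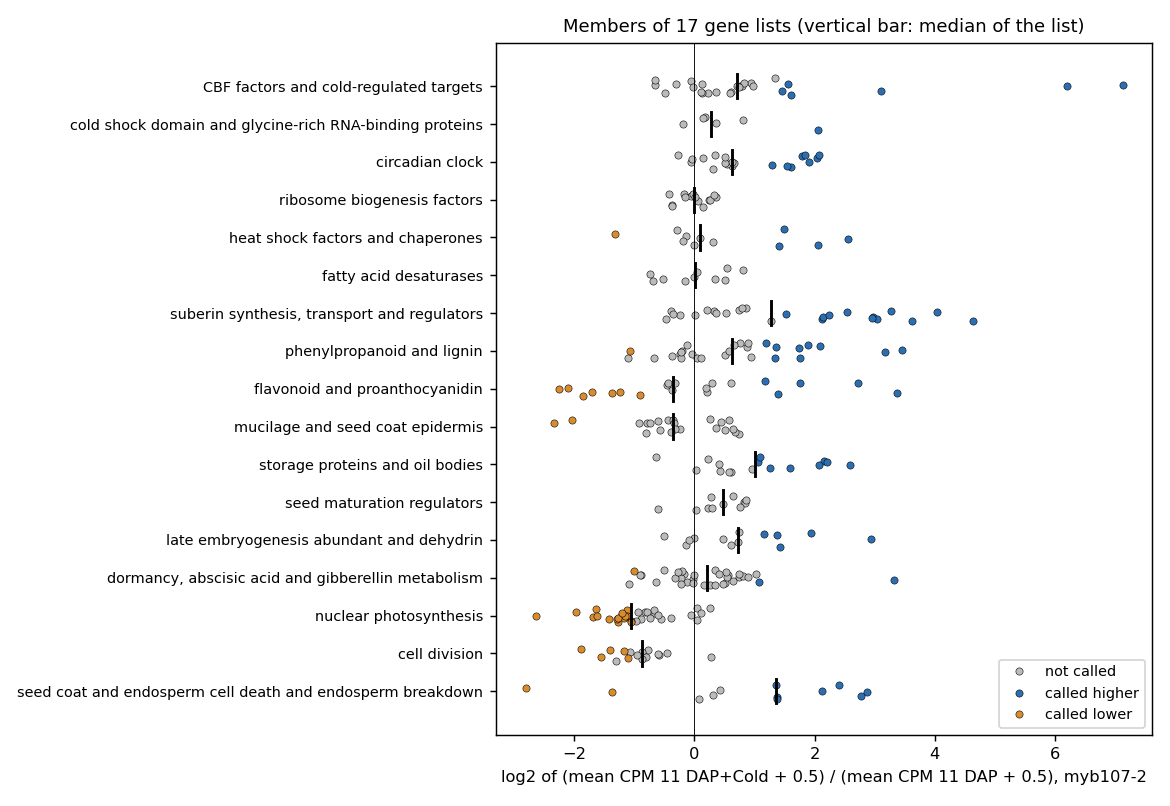
Members of the 17 gene lists in *myb107-2*, as the log2 ratio of the mean CPM at 11 DAP+Cold to that at 11 DAP after 0.5 CPM was added to each. Each point is 1 gene, colour gives its call, and the vertical bars are list medians. Suberin, storage and cell death genes lie mostly to the right and photosynthesis and cell division genes to the left, with 17 of 33 photosynthesis genes called lower.

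Among suberin genes, 12 were higher at 11 DAP+Cold than at 11 DAP in *myb107-2*, most of them from levels near 0. Of 28 listed genes, 3 had no count and 25 were tested, of which 12 were called higher and none lower, 48.0% against 4.14% of all genes. The median log2 fold change was 4.06, or 2.29 with genes near 0 set to their bound, and 5 members stayed below 1 CPM in all 6 libraries. One call, that of the fatty acid hydroxylase *CYP86A1*, was lost in 5 of the 6 fits with 1 library left out (highest adjusted p = 0.17). In WT, 16 of the 25 were called higher at 11 DAP+Cold and 20 at 13 DAP. *MYB9*, a MYB factor that also promotes suberin genes in the seed coat, was at 0.0734, 0 and 0 CPM at 11 DAP and 3.02, 2.12 and 2.50 CPM at 11 DAP+Cold (log2 fold change 6.26, SE 1.21, adjusted p = 0.0014). In WT it was at 1.49, 32.4 and 113 CPM at 11 DAP, 11 DAP+Cold and 13 DAP, so that the cold *myb107-2* libraries held 7.86% of the WT level.

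*ASFT*, the feruloyl transferase that joins ferulate to suberin (chromosome 5, 16431304 to 16433305, plus strand), was at 1.42, 0.669 and 0.952 CPM at 11 DAP and 40.9, 16.5 and 53.0 CPM at 11 DAP+Cold (log2 fold change 5.11, SE 0.41, adjusted p = 7.2e-07). In WT its mean was 321 ± 49.3 CPM before and 609 ± 82.7 CPM after the cold (SD, n = 3), so the *myb107-2* level was 0.316% of WT before the transfer and 6.05% after it. *ASFT* was the only one of the 25 members tested whose change differed from that in WT, by 4.19 on the log2 scale (SE 0.50, adjusted p = 0.0018). *ABCG6*, a transporter of suberin precursors, rose from 1.35, 1.62 and 0.703 CPM to 23.3, 16.6 and 22.2 CPM (log2 fold change 4.06, SE 0.36, adjusted p = 1.5e-06), and its change in WT was 4.05 (SE 0.29). The *myb107-2* level was 25.3% of WT at 11 DAP and 25.4% at 11 DAP+Cold.

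*CYP86B1*, a fatty acid hydroxylase for very long chains, rose from 1.53, 1.21 and 0.293 CPM to 13.1, 5.07 and 15.4 CPM (log2 fold change 3.39, SE 0.57, adjusted p = 0.00056), 6.62% of the WT cold level. *GPAT4*, a glycerol acyltransferase, rose from 3.14, 2.34 and 2.64 CPM to 17, 9.20 and 14.4 CPM (log2 fold change 2.29, SE 0.37, adjusted p = 0.00036), 9.70% of WT. The lipid transfer protein gene *AT2G48130* was at 0 in all libraries at 11 DAP and at 10, 2.30 and 10.9 CPM at 11 DAP+Cold, at least 188-fold higher, and 21.2% of its 50-base words occur elsewhere in the genome, so that its reads may be shared. *KCS1*, which elongates fatty acids for wax and suberin, was nearest to WT of the 6 members with the smallest p, at 28.6, 31.6 and 24.0 CPM at 11 DAP and 91.9, 88.3 and 65.6 CPM at 11 DAP+Cold (log2 fold change 1.54, SE 0.23, adjusted p = 0.00018), 72.4% and 58.6% of WT. Among members beyond the 6 with the smallest p, chosen after their values were seen, *GPAT5*, another glycerol acyltransferase, rose from 0.498 CPM in 1 library and 0 in the others to 4.92, 2.33 and 6.95 CPM, 18% of the WT cold level. Across the list, replicate 2 at 11 DAP+Cold was again the lowest cold library for *ASFT*, *CYP86B1*, *GPAT4*, *AT2G48130*, *ABCG6*, *GPAT5* and *MYB9*. *LACS2*, *ABCG20* and *KCS2* were abundant members without a call. *LACS2*, an acyl-CoA synthetase of cutin and suberin, had a log2 fold change of 0.80 (SE 0.25, adjusted p = 0.036), and 2.19 in WT (SE 0.24).

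**Figure D3:**
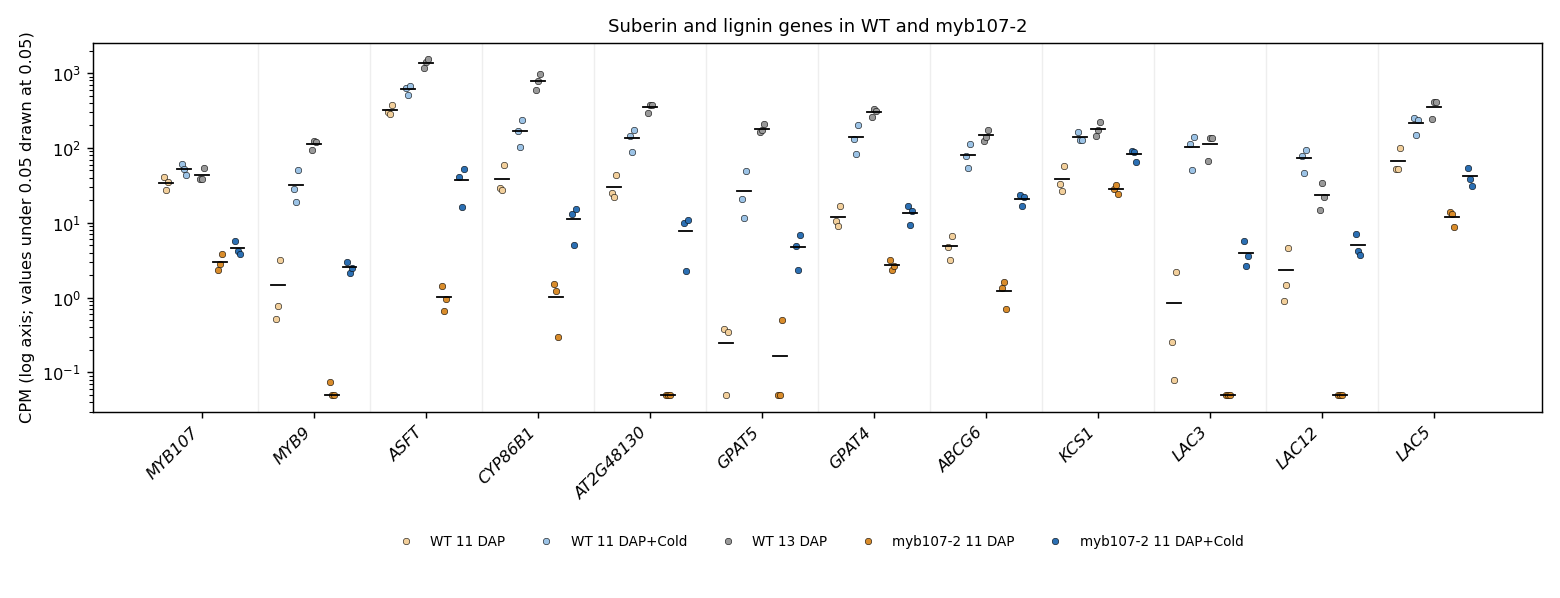
Levels in CPM (log axis) of *MYB107*, *MYB9* and suberin and lignin genes in 3 WT groups and both *myb107-2* groups. Each point is 1 library, bars are means, and values under 0.05 CPM are drawn at 0.05. The *myb107-2* cold libraries lie above *myb107-2* at 11 DAP for each gene but *MYB107*, whose libraries overlap, and below WT at 11 DAP+Cold, with *ASFT* at 36.8 against 609 CPM.

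Genes of phenylpropanoid and lignin synthesis gave 9 calls higher and 1 lower of 28 (32.1% and 3.57%, against 4.14% and 3.83% of all genes), and 6 of the higher calls held with any library left out, while *PAL3*, *PAL4* and *LAC16* lost theirs in 5, 4 and 5 of 6 fits (highest adjusted p = 0.067, 0.17 and 0.12). *PAL1*, which starts the pathway from phenylalanine, rose from 5.48, 2.93 and 3.32 CPM to 19.9, 14.7 and 20.4 CPM (log2 fold change 2.18, SE 0.32, adjusted p = 0.00016). *4CL2* and *4CL3*, coumarate-CoA ligases, rose from 5.08, 5.13 and 4.76 CPM to 17.2, 18.9 and 18 CPM (log2 fold change 1.83, SE 0.17, adjusted p = 2.6e-06) and from 6.54, 7.43 and 5.71 CPM to 29.2, 19.7 and 28.1 CPM (log2 fold change 1.96, SE 0.25, adjusted p = 5.5e-05). The ligase gene *4CL5* went the other way and was not called. It was at 35.9, 32.3 and 33.0 CPM at 11 DAP and 16.4, 20.0 and 26.3 CPM at 11 DAP+Cold. *LAC5*, *LAC3* and *LAC12* encode laccases, a family of enzymes that polymerize phenols in the wall. *LAC5* rose from 13.8, 13.1 and 8.83 CPM to 54.4, 39.0 and 31.3 CPM (log2 fold change 1.78, SE 0.29, adjusted p = 0.00036) and was 19.5% of the WT cold level. *LAC3* and *LAC12* were at 0 in all libraries at 11 DAP and at 5.73, 2.68 and 3.61 CPM and 7.05, 4.18 and 3.75 CPM at 11 DAP+Cold, at least 97.6-fold and 122-fold higher, which was 3.94% and 6.83% of WT. The most abundant members, *COMT1*, *CCoAOMT1*, *CCR1* and *CAD5*, were not called. *CCR1*, cinnamoyl-CoA reductase, was at 151, 144 and 159 CPM at 11 DAP and 296, 301 and 276 CPM at 11 DAP+Cold (log2 fold change 0.93), and *COMT1*, a methyltransferase, at 290.0 ± 27.1 CPM and 247 ± 27.4 CPM (SD, n = 3). The call of *FAH1*, the one that was lower, did not hold without replicate 1 at 11 DAP (log2 fold change -0.81, adjusted p = 0.053). Of the same 28 genes, WT had 9 called higher and none lower at 11 DAP+Cold, and 16 higher and 1 lower at 13 DAP.

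The flavonoid pathway split between its early and late steps. Of 20 genes, 5 were called higher and 7 lower (25% and 35.0%, against 4.14% and 3.83% of all genes), and 4 and 6 of these calls held with any library left out. The genes called higher were *CHS*, *CHI*, *F3H*, *TT7* and *FLS1*, which act in the early steps or make flavonols, and those called lower were *LDOX*, *BAN*, *TT19*, *AHA10*, *TT1*, *TT2* and *TT16*, which make, transport or regulate proanthocyanidins. *CHS*, the first enzyme of the pathway, rose from 225, 195 and 168 CPM to 596, 443 and 506 CPM (log2 fold change 1.39, SE 0.16, adjusted p = 1.7e-05). *CHI*, the second, rose from 13.5, 12.6 and 14.3 CPM to 159.9, 125 and 149 CPM (log2 fold change 3.42, SE 0.24, adjusted p = 2.4e-07). *FLS1*, flavonol synthase, rose from 34.6, 22.8 and 23.1 CPM to 199.9, 158 and 179 CPM (log2 fold change 2.72, SE 0.24, adjusted p = 1.6e-06), and *F3H* from 204, 184 and 189.9 CPM to 714, 609.7 and 639 CPM. *TT7* rose from 239, 236 and 155 CPM to 517, 462 and 453 CPM, and without replicate 3 at 11 DAP its log2 fold change was just under the limit, at 1.00 after rounding. On the late side, *LDOX*, which forms anthocyanidins, fell from 31.3, 45.4 and 34.8 CPM to 6.28, 7.81 and 8.02 CPM (log2 fold change -2.33, SE 0.22, adjusted p = 2.7e-06). *BAN*, which turns them into epicatechin, fell from 179, 230.4 and 190.0 CPM to 83.1, 103 and 66.6 CPM (log2 fold change -1.25, SE 0.22, adjusted p = 0.00069). *TT2*, the MYB factor that switches on *BAN*, fell from 14.9, 11.9 and 11.7 CPM to 3.63, 2.72 and 4.43 CPM (log2 fold change -1.85, SE 0.21, adjusted p = 1.4e-05). The call of *TT16* was lost in 4 of the 6 fits with 1 library left out (highest adjusted p = 0.12). *TT7*, *BAN*, *TT1*, *TT16* and any other called member beyond the 6 with the smallest p are named after their values were seen. *TT8*, *DFR*, *TT10* and *TTG1* were the most abundant members without a call. *TT10*, a laccase that oxidizes the pigment, was at 2048, 1689 and 1260.1 CPM at 11 DAP and 1470.3, 1265 and 1261 CPM at 11 DAP+Cold, ranges that overlap. Of the same 20 genes, WT had 2 called higher and 4 lower at 11 DAP+Cold, and 1 higher and 7 lower at 13 DAP.

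In WT, *CHS* was at 359 CPM before and 430.0 CPM after the cold, so that *myb107-2* was at 54.5% of WT before the transfer and 119.8% after it. The corresponding shares were 54.1% and 163% for *CHI* and 48.9% and 139.7% for *FLS1*. The change of *CHS* differed from that in WT by 1.14 (SE 0.22, adjusted p = 0.041) and that of *CHI* by 1.61 (SE 0.32, adjusted p = 0.05), but in the 12 fits with 1 library left out the call of *CHS* was lost in 8 and that of *CHI* in 10 (highest adjusted p = 0.15 and 0.16). *FLS1* had a difference of 1.52 (SE 0.32, adjusted p = 0.068) that did not pass. At 13 DAP without cold, *CHS* was at 1156, 667 and 605 CPM in WT, above every cold library of *myb107-2*. For *CHI*, the WT libraries at 13 DAP all lay below the cold libraries of *myb107-2*, and for *FLS1* the ranges overlapped. Of the 9 seed coat markers, 3 were called lower, namely *AT3G20210* and the late genes *BAN* and *TT2* themselves. The other markers, *TT8* and *TT10* among them, were not called. The part of the amount of seed coat RNA in these levels was not tested.

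Of 22 genes of mucilage and the seed coat epidermis, 2 were called lower and none higher (9.09% lower, against 3.83%). *GATL5*, a glycosyltransferase of mucilage pectin, fell from 81.7, 79.8 and 80.8 CPM to 15.5, 14.0 and 17.2 CPM (log2 fold change -2.39, SE 0.29, adjusted p = 2.8e-05). *BXL1*, a xylosidase needed for mucilage release, fell from 254, 265 and 195 CPM to 63.6, 52.9 and 55.5 CPM (log2 fold change -2.06, SE 0.22, adjusted p = 9.7e-06). *ARA12*, a subtilisin protease of mucilage cells, was at 916 ± 161 CPM and 718 ± 12.6 CPM (SD, n = 3). *COBL2* was at 232 ± 67.8 CPM and 139 ± 12.6 CPM, and the integument factors *NARS1* and *NARS2* at log2 fold changes of 0.56 and 0.43, none of them called.

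Seed storage genes were already abundant at 11 DAP. Of 16 genes, 8 were called higher and none lower (50% against 4.14%), with a median log2 fold change of 1.00 against 0.00 over all genes, and 6 of the calls held with any library left out. *SESA1*, a 2S albumin, rose from 447, 519 and 320.3 CPM to 3029, 2071 and 2644 CPM (log2 fold change 2.58, SE 0.34, adjusted p = 6.5e-05). *CRU3* and *CRU2*, 12S globulins, rose from 1441, 1109 and 707 CPM to 5755, 4013 and 5307 CPM (log2 fold change 2.2, SE 0.31, adjusted p = 0.00013) and from 1203, 962 and 807 CPM to 5077, 3724 and 4434 CPM (log2 fold change 2.15, SE 0.30, adjusted p = 0.00013). *SESA5*, another 2S albumin, rose from 134, 157 and 121 CPM to 684, 473 and 586 CPM (log2 fold change 2.07, SE 0.26, adjusted p = 3.6e-05). *CLO1*, a caleosin of oil bodies, rose from 249.7, 262 and 259 CPM to 897, 719 and 718 CPM (log2 fold change 1.59, SE 0.20, adjusted p = 3.4e-05). *SESA2* rose from 8764, 8879 and 7079.9 CPM to 23326, 17146 and 18332 CPM (log2 fold change 1.24, SE 0.28, adjusted p = 0.0049). The call of *SESA3* was lost without any 1 library at 11 DAP (log2 fold change 1.07, 1.1 and 0.98, adjusted p = 0.059, 0.066 and 0.077) and without replicate 1 at 11 DAP+Cold (0.89, adjusted p = 0.085), and that of *SESA4* without replicate 1 at 11 DAP+Cold (0.97, adjusted p = 0.046). The oleosins *OLEO1* and *OLEO2*, which coat oil bodies, and *CRA1* were not called, with log2 fold changes of 0.56, 0.41 and 0.94. In WT, 5 of the 16 were called higher at 11 DAP+Cold and 14 at 13 DAP. *SESA1* was at 210.2, 1225 and 4889 CPM in WT at 11 DAP, 11 DAP+Cold and 13 DAP, and the mean of the cold *myb107-2* libraries, 2581 CPM, lay between the WT cold and 13 DAP means. The embryo is rich in these transcripts, and the summed embryo markers were 26.5 to 34.3 CPM at 11 DAP and 37.9 to 41.8 CPM at 11 DAP+Cold, and the part of embryo RNA was not tested.

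Of 13 late embryogenesis abundant and dehydrin genes tested, 5 were called higher and none lower (38.5% against 4.14%), and 3 of the calls held with any library left out, while *ECP63* was at a log2 fold change of 0.94 without replicate 1 at 11 DAP and *M10* at an adjusted p of 0.053 without replicate 3 at 11 DAP+Cold. *AT3G15670*, a LEA protein, was at 4.64, 6.16 and 12.2 CPM at 11 DAP and 63.9, 53.3 and 69.2 CPM at 11 DAP+Cold (log2 fold change 3.03, SE 0.33, adjusted p = 1e-05). *HVA22B*, a membrane protein related to an abscisic acid-induced gene of barley, rose from 15.6, 13.5 and 14.5 CPM to 65.7, 45.8 and 59.9 CPM (log2 fold change 1.96, SE 0.26, adjusted p = 7.6e-05), and *RAB28* from 5.38, 4.98 and 6.91 CPM to 17.8, 13.9 and 15.4 CPM. *LEA14* and *LEA7* were the most abundant uncalled members, with log2 fold changes of 0.46 and 0.60. *RAB18*, a dehydrin often used to mark abscisic acid signalling, was named after its values were seen. It was at 10.8, 13.6 and 16.6 CPM and 9.91, 10.3 and 8.40 CPM in *myb107-2*, a log2 fold change of -0.52 (adjusted p = 0.044), and rose by 2.59 in WT by 13 DAP (adjusted p = 6.7e-05). Of the 13 genes tested, WT had 5 called higher at 11 DAP+Cold and 9 at 13 DAP, and none lower. None of 11 maturation regulators was called in *myb107-2*. *FUS3*, a B3 factor that controls seed filling, was at 109.9, 104 and 146 CPM at 11 DAP and 192, 192 and 252 CPM at 11 DAP+Cold (log2 fold change 0.81, adjusted p = 0.0011), and *bZIP67* was at 129 ± 33.7 CPM and 179.8 ± 8.78 CPM.

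*DOG1*, the main determinant of seed dormancy depth, had the largest increase on the log2 scale among the dormancy genes (chromosome 5, 18589418 to 18591506, minus strand). It was at 5.42, 5.32 and 5.29 CPM at 11 DAP and 67.9, 50.4 and 55.5 CPM at 11 DAP+Cold (log2 fold change 3.43, SE 0.32, adjusted p = 2.8e-06), with 11 DAP libraries that nearly coincide. In WT it was at 4.14 ± 2.67 CPM at 11 DAP, 27.9 ± 11.7 CPM at 11 DAP+Cold and 81.4 ± 19.3 CPM at 13 DAP (SD, n = 3), and its change in the cold did not differ detectably between the genotypes (0.70, SE 0.46, adjusted p = 0.9). Of 34 genes of dormancy, abscisic acid and gibberellin metabolism, 2 were called higher (5.88% against 4.14%) and 1 lower. The other one called higher was *RDO5*, a phosphatase that acts in dormancy, at 7.35, 5.22 and 5.32 CPM at 11 DAP and 12.6, 12.4 and 14.3 CPM at 11 DAP+Cold (log2 fold change 1.11, SE 0.19, adjusted p = 0.00068). *RGL3*, a DELLA protein, was called lower, but not without replicate 3 at 11 DAP+Cold (log2 fold change -0.92). *MFT*, an inhibitor of germination made in the endosperm and embryo, was at 1145 ± 128 CPM and 1782 ± 26.3 CPM (SD, n = 3) with a log2 fold change of 0.63. *NCED6*, an enzyme of abscisic acid synthesis in the endosperm, had a log2 fold change of 0.51, and neither was called.

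Among nuclear genes of photosynthesis, 17 fell and none rose. The 17 are 51.5% of 33 genes, against 3.83% of all genes called lower, 29 of the 33 had a negative fold change, and the median log2 fold change was -1.08 against 0.00. Of the 17 calls, 15 held with any library left out, and those of *PSAH2* and *PSAN* did not. *PSBO2*, which encodes a subunit of the water-splitting complex, is not in this list. It fell from 87.6, 94.0 and 122 CPM to 14.2, 15.3 and 17.5 CPM (log2 fold change -2.70, SE 0.17, adjusted p = 8.5e-08). The more abundant *PSBO1*, which is in the list, changed less than 2-fold. It was at 627, 745 and 775 CPM at 11 DAP and 452, 406 and 359 CPM at 11 DAP+Cold. Of the listed genes called lower, *PSBQ2*, of the same complex, fell from 312, 347 and 406 CPM to 94.9, 97.1 and 78.2 CPM (log2 fold change -1.99, SE 0.14, adjusted p = 2.7e-07). *LHCB2.1* and *LHCB2.2*, antenna proteins of photosystem II, fell from 201, 291 and 292 CPM to 87.1, 83.6 and 72.0 CPM and from 113, 169 and 187 CPM to 27.4, 24.5 and 22.2 CPM. These 2 genes share 23.5% and 29.5% of their 50-base words with other places in the genome. Photosystem I genes fell as well, *LHCA3* from 298, 315 and 321 CPM to 139.8, 128 and 119 CPM (log2 fold change -1.28, SE 0.12, adjusted p = 2.5e-06) and *PSAD1* from 188, 239 and 238 CPM to 86.5, 83.9 and 77.8 CPM (log2 fold change -1.43, SE 0.13, adjusted p = 1.9e-06). The most abundant members were not called. *RBCS1A*, the small subunit of Rubisco, was at 1605, 1469 and 1457 CPM at 11 DAP and 1741, 1526 and 1373 CPM at 11 DAP+Cold, and *LHCB1.3*, the main antenna gene, at 1174, 1436 and 1705 CPM at 11 DAP and 1704, 1508 and 1253 CPM at 11 DAP+Cold, with overlapping ranges in both cases. *PTAC16*, a plastid protein outside this list, fell from 30.5, 34.9 and 40.1 CPM to 6.21, 6.84 and 6.29 CPM (log2 fold change -2.45, SE 0.17, adjusted p = 1.6e-07). In WT, 12 of the 33 genes were called lower at 11 DAP+Cold and 23 at 13 DAP.

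Most cell divisions of the seed coat and endosperm precede this stage. Of 17 genes, 5 were called lower and none higher (29.4% against 3.83%), 16 had a negative fold change, and 2 of the calls, *KNOLLE* and the uncertain *AUR2*, held with any library left out. *KNOLLE*, the syntaxin of the cell plate, fell from 64.1, 93.6 and 99.8 CPM to 27.6, 32 and 36.6 CPM (log2 fold change -1.43, SE 0.20, adjusted p = 0.00014). In WT it was at 85.2 CPM at 11 DAP, 80.2 CPM at 11 DAP+Cold and 4.57 CPM at 13 DAP, and the difference between the genotypes in the change had an adjusted p of 0.069. Of the same 17 genes, WT had 7 called lower and none higher at 11 DAP+Cold, and 11 lower and 1 higher at 13 DAP. In *myb107-2*, *MCM5* and *MCM2*, replication helicase subunits, were at 11.7 ± 1.32 and 6.13 ± 0.285 CPM and at 7.39 ± 1.35 and 4.68 ± 1.12 CPM (SD, n = 3) and were not called. *TOPII*, *CYCB1;1* and *CDKB2;1*, which were under 5 CPM in all 6 *myb107-2* libraries, lost their calls in 5, 3 and 5 of the 6 fits with 1 library left out (highest adjusted p = 0.11, 0.11 and 0.098).

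Of 12 genes of cell death in the seed coat and endosperm, 7 were called higher and 2 lower (58.3% and 16.7%, against 4.14% and 3.83%), and all 9 calls held with any library left out. *BFN1*, a nuclease of dying cells, rose from 44.1, 54.3 and 59.0 CPM to 236, 211 and 245 CPM (log2 fold change 2.13, SE 0.16, adjusted p = 3.8e-07). *RNS3*, a ribonuclease, rose from 39.3, 50 and 62.1 CPM to 294, 249.9 and 264 CPM (log2 fold change 2.41, SE 0.22, adjusted p = 2e-06). *AT4G18425*, a membrane protein of the DUF679 family, rose from 27.3, 28.0 and 27.7 CPM to 219.9, 186 and 172 CPM (log2 fold change 2.79, SE 0.18, adjusted p = 1.2e-07), and *AT2G14095*, uncharacterized in the annotation, from 3.5, 4.30 and 7.65 CPM to 42.9, 36.1 and 42.7 CPM (log2 fold change 2.99, SE 0.32, adjusted p = 9.8e-06). *SCPL48*, a carboxypeptidase, rose from 352, 402 and 369 CPM to 1061, 930.0 and 905 CPM (log2 fold change 1.36, SE 0.14, adjusted p = 6.5e-06). Of the 2 genes called lower, *AT3G20210*, the delta vacuolar processing enzyme that starts the death of the inner seed coat layers, fell from 1064, 1359.8 and 1099 CPM to 150.4, 165 and 185 CPM (log2 fold change -2.82, SE 0.24, adjusted p = 1.2e-06). The other, *ALE1*, a subtilisin-like protease of the young endosperm, was at 5.01 ± 0.836 CPM and 1.63 ± 0.853 CPM (SD, n = 3). The protease gene *CEP1* and *AT1G62710*, the beta vacuolar processing enzyme, were abundant and not called, with log2 fold changes of 0.29 and 0.41.

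The same transfer in WT called 826 genes higher (3.17%) and 1020 lower (3.91%) of the 26068, in libraries that are not shared with the *myb107-2* comparison. Of the 1080 genes called higher in *myb107-2*, 531 were called higher in WT at 11 DAP+Cold, which is 49.2% of the *myb107-2* list and 64.3% of the WT list, and 2 were called lower. Of the 998 called lower in *myb107-2*, 570 were called lower in WT, 57.1% and 55.9% of the lists, and 1 was called higher. The sign of the change in WT was the same for 1007 of the 1080 and for 969 of the 998. Over 18122 genes with a group mean of at least 1 CPM, the log2 fold changes of the genotypes had a Pearson r of 0.63 and a Spearman rho of 0.72, across genes, which are not independent replicates. The median change in WT of the genes called in *myb107-2* was 1.21 for the higher and -1.28 for the lower genes, against 1.77 and -1.68 in *myb107-2*, where the genes were chosen.

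Age without cold was measured in WT only. Between 11 and 13 DAP at 22 °C, 1371 genes were called higher (5.22% of 26245) and 1449 lower (5.52%). Of the 1080 genes called higher in *myb107-2*, 533 were called higher in WT at 13 DAP, 49.4% of the *myb107-2* list and 38.9% of the WT list, and 22 were called lower. Of the 998 called lower, 535 were called lower at 13 DAP, 53.6% and 36.9% of the lists, and 19 were called higher. Without the 13 DAP library rich in ribosomal RNA, these 4 counts were 505, 16, 480 and 32. In that fit 1311 genes were called higher and 1230 lower at 13 DAP, and 9 genes named in the text had another call at 13 DAP. The log2 fold changes in *myb107-2* and in WT between 11 and 13 DAP had a Pearson r of 0.59 and a Spearman rho of 0.49 across genes. Set against 13 DAP, the WT cold libraries held 1005 genes called higher (3.83%) and 1074 called lower (4.09%). Both changes from 11 DAP in WT use the same libraries as their base. In neither of them were 353 of the genes called higher in *myb107-2* (32.7%) and 275 of those called lower (27.6%) called in the same direction.

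**Figure D4:**
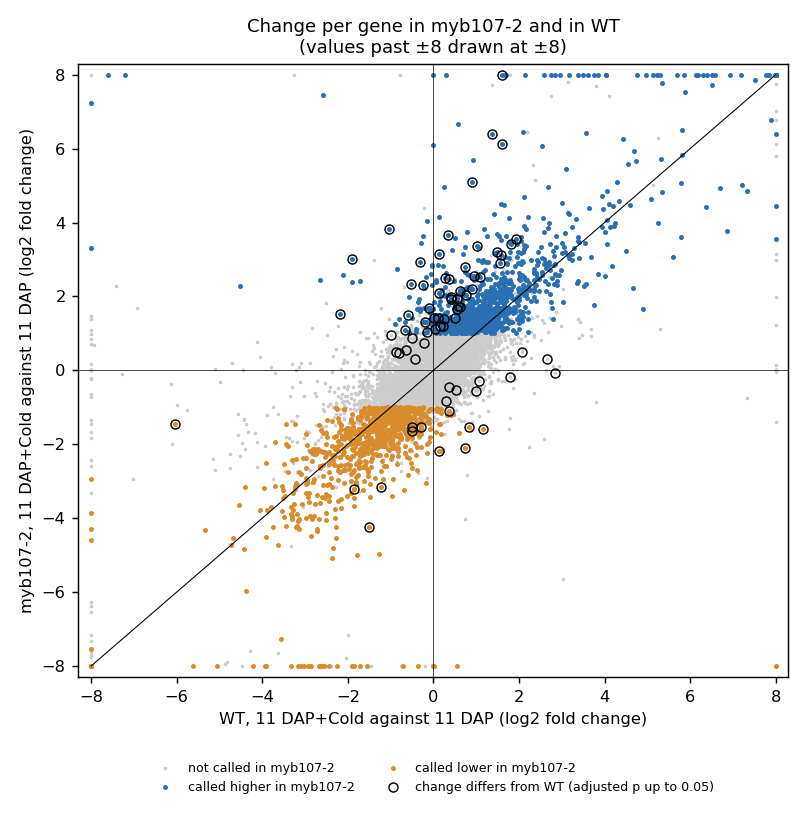
Log2 fold change between 11 DAP+Cold and 11 DAP in WT (horizontal axis) and *myb107-2* (vertical axis) for each gene, with values past 8 in size drawn at the edge. Blue and orange points are genes called higher and lower in *myb107-2*, circles are the 73 genes whose change differed between the genotypes, and the line marks equal change. Most coloured points share their sign in WT, and the circles lie mainly above the line, 53 of 73.

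The change in the cold differed between *myb107-2* and WT for 73 genes (0.28% of genes tested), 53 of them more positive in *myb107-2* (0.203%) and 20 more negative (0.0767%). With DESeq2, 378 genes differed. The edgeR count depended on single libraries and lay between 26 and 108 when one was left out, namely 26 and 36 when replicates 1 and 3 of the *myb107-2* cold group were left out, 33 and 32 without replicates 2 and 3 of *myb107-2* at 11 DAP, 44 without replicate 2 of WT at 11 DAP 42 without replicate 2 of WT at 11 DAP+Cold, and 108 without replicate 3 of that group. Of the 73, 57 were also called in *myb107-2*, 45 of them higher with a more positive change, 11 lower with a more negative change, and 1, *ATPMEPCRD*, lower with a less negative change than in WT. The median log2 fold change of the 45 was 2.2 in *myb107-2* and 0.40 in WT at 11 DAP+Cold, values that the test itself selected, and 1.23 in WT at 13 DAP, where 26 of the 45 were called higher.

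*ATPMEPCRD*, of the invertase and pectin methylesterase inhibitor superfamily, had the smallest p of these (chromosome 2, 17902370 to 17904443, plus strand). It was at 1491, 1248 and 1193 CPM at 11 DAP and still at 563, 442 and 445 CPM at 11 DAP+Cold in *myb107-2*, while in WT it was at 503 to 541 CPM and 3.80 to 10.4 CPM. The change was -1.45 in *myb107-2* and -6.04 in WT, a difference of 4.59 (SE 0.31, adjusted p = 4.9e-06), and in WT the gene was at 3.67 CPM at 13 DAP. *AT1G75280*, annotated as an NmrA-like protein, rose from 7.54, 13.7 and 12.1 CPM to 55.1, 46.8 and 64.1 CPM in *myb107-2* and was at 12 to 18.1 CPM and 9.95 to 10.8 CPM in WT, a difference of 2.84 (SE 0.29, adjusted p = 0.00048). In WT it reached 95.7 CPM at 13 DAP. *AT5G39110*, a cupin of which 20.3% of the 50-base words lie elsewhere in the genome, moved in opposite directions, from 9.53, 11.8 and 4.83 CPM to 29.4, 18.7 and 28.5 CPM in *myb107-2* and from 23.3 ± 0.525 CPM to 5.12 ± 2.86 CPM in WT (SD, n = 3). The difference was 3.71 (SE 0.45, adjusted p = 0.0018). *AT1G54575* rose by 1.93 in *myb107-2* and was at 0.42 in WT on the log2 scale, a difference of 1.51 (SE 0.16, adjusted p = 0.00055).

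On the other side, *AT1G12010*, of the family of 2-oxoglutarate-dependent oxygenases, fell from 457, 599 and 501 CPM to 129.7, 85.6 and 153 CPM in *myb107-2*. In WT it was at 400.1 to 674 CPM at 11 DAP, 588 to 1278 CPM at 11 DAP+Cold and 2137 to 2315 CPM at 13 DAP. The difference in the change was -2.83 (SE 0.38, adjusted p = 0.0036). *PA2*, the peroxidase described above, was at 42.1 ± 6.45 CPM and 14.7 ± 4.77 CPM in WT (SD, n = 3), and its change differed by -2.74 (SE 0.37, adjusted p = 0.0036). *RCI2B*, a small membrane protein named for its induction by cold in leaves, fell from 63.7, 74.2 and 64.0 CPM to 22.4, 24.1 and 24.3 CPM, more than in WT (difference -1.02, SE 0.17, adjusted p = 0.019). *AT5G14450* differed by -1.36 (SE 0.25, adjusted p = 0.03). The calls of *RCI2B*, *AT5G14450* and the weakly expressed *AT3G56230*, of the BTB/POZ family, were lost in 7, 8 and 7 of the 12 fits with 1 library left out (highest adjusted p = 0.087, 0.12 and 0.12). Those of *ATPMEPCRD*, *AT1G75280*, *AT5G39110*, *AT1G54575*, *AT1G12010* and *PA2* were kept in all 12.

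**Figure D5:**
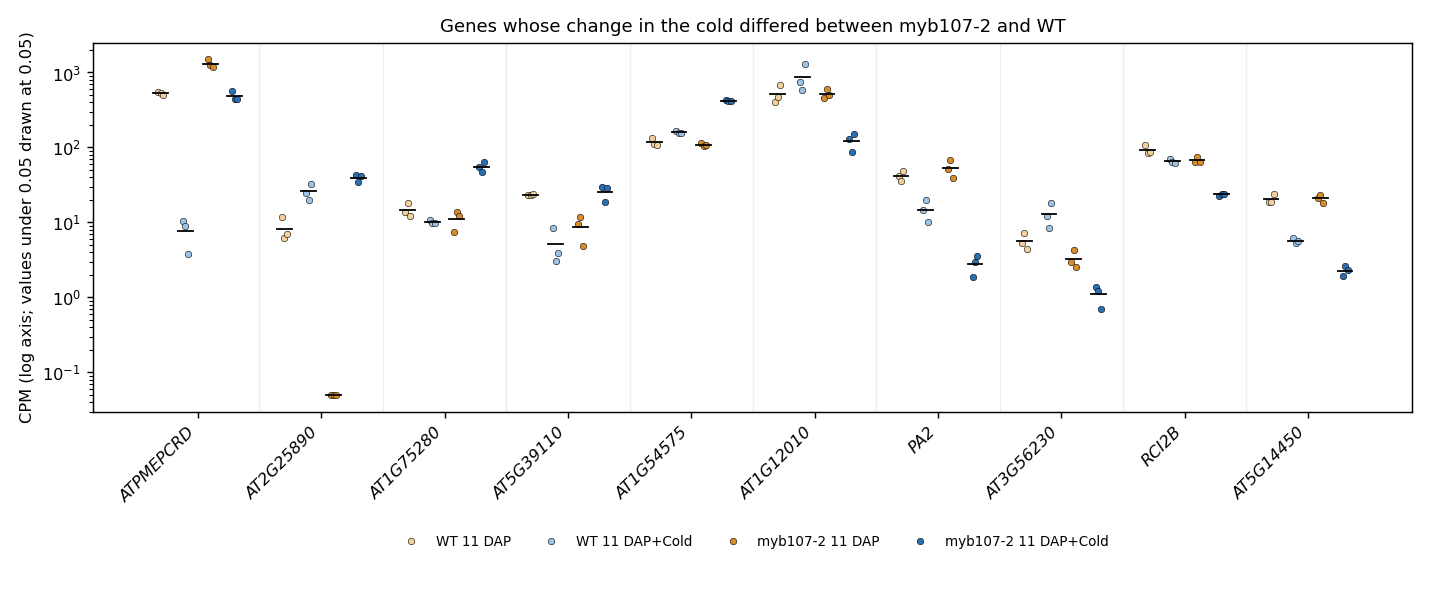
Levels in CPM (log axis) of 10 genes whose change in the cold differed between *myb107-2* and WT. Among genes also called in *myb107-2*, they have the smallest p of this difference, 5 in each direction. Each point is 1 library, bars are means, and values under 0.05 CPM are drawn at 0.05. In the cold, *ATPMEPCRD* lies at 3.80 to 10.4 CPM in WT and at 442 to 563 CPM in *myb107-2*, and *AT1G12010* lies lowest in *myb107-2*, at 85.6 to 153 CPM.

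Genes outside the naming rule with a large difference, chosen after their values were seen, were *AT4G36610*, *SP1L2* and *GDH3*. *AT4G36610*, of the alpha/beta-hydrolase superfamily, was at 0.315, 0 and 0.146 CPM at 11 DAP and 17.9, 9.16 and 18 CPM at 11 DAP+Cold in *myb107-2* and at 161 ± 38.7 CPM and 423 ± 123 CPM in WT (SD, n = 3). Its change was more positive by 5.0 than in WT (SE 0.65, adjusted p = 0.0018), and its level went from 0.0956% to 3.55% of the WT level. *SP1L2*, of the SPIRAL1 family of microtubule-associated proteins, overlaps *AT1G69220* on the same strand and was at 30.6, 28.5 and 32.6 CPM at 11 DAP and 207, 125 and 129 CPM at 11 DAP+Cold in *myb107-2*, against 2.39 to 3.51 CPM and 2.39 to 2.59 CPM in WT, so that all *myb107-2* libraries lay above all WT libraries of these groups. Its change differed by 2.57 (SE 0.32, adjusted p = 0.0018). *GDH3*, a glutamate dehydrogenase, rose from 1.48, 1.53 and 2.46 CPM to 29.5, 16.8 and 22.7 CPM and was at 2.31 and 3.01 CPM in WT, a difference of 3.32 (SE 0.41, adjusted p = 0.0018). At 13 DAP, WT reached 17.2 CPM for *GDH3* and 14.0 CPM for *SP1L2*.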

How the data were processed

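Seed coat and endosperm RNA of 18 samples had been sequenced as stranded, poly(A)-selected libraries. According to the study's methods and the labels, the authors trimmed the reads, aligned them with HISAT2 and quantified genes with StringTie. The deposited files hold estimated counts of whole numbers. Tool versions and the genome build of the counts are not given in the sources used here. All 37883 nuclear identifiers are found in TAIR10.1, from which positions and promoters were taken. In 22 genes, 5 files held dates in place of counts, and these genes were left out, leaving 37861. Rows of other kinds held between 0.454% and 1.13% of counts in the *myb107-2* libraries and up to 2.13% in the WT libraries.

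Counts were fitted with edgeR 4.0.16 (quasi-likelihood, TMM scaling, R 4.3.3) over 12 libraries, 3 for each genotype before and after the cold, for the 26068 genes with a count in them. Contrasts gave the change in each genotype and their difference, the interaction. The SE printed with a log2 value is its size divided by the square root of the F statistic of its test. It was not estimated separately, and for genes near 0 it does not measure the uncertainty of the fold change. The WT change to 13 DAP came from a fit of 12 WT libraries, among them the 3 taken after 6 h at 13 °C. P-values were adjusted by Benjamini-Hochberg over all genes tested. Calls required an adjusted p not above 0.05 and, except for the interaction, at least a 2-fold difference. The code was first tested on simulated data. Replicate numbers did not pair the samples.

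Named genes were, among called genes without overlap and with a mean of at least 10 CPM, the 10 with the smallest p and the 5 with the largest change in each direction, the 5 with the smallest interaction p in each direction, and of each of 17 lists up to 6 called and up to 4 uncalled members. The comparison, its members and the lists were chosen with earlier results of these data known. Promoters are the 250 bases before the RefSeq gene start, and 1 promoter that the rule names is not reported here. Alternatives were DESeq2 1.42.0, other scalings, count filters, dispersion settings and sets of libraries, a replicate block, calls by adjusted p alone, and fits that omit 1 library. The study's own fold changes were not used.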

Additional observations from a re-analysis of the deposited data

Results flagged for a closer look

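The change between 11 DAP and 11 DAP+Cold differed between *myb107-2* and WT, by the interaction test of edgeR, for 73 genes. The following are the log2 differences, *myb107-2* minus WT, for genes the text names. It was 12.85 for *AT2G25890*, a fitted value that depends on the prior count because the gene is listed at 0 in *myb107-2* at 11 DAP, and that is uncertain because of its overlap with *AUR2*. The difference was 5.0 for *AT4G36610*, 4.59 for *ATPMEPCRD*, 4.19 for *ASFT*, 3.71 for *AT5G39110*, 3.32 for *GDH3*, 2.84 for *AT1G75280* and 2.57 for *SP1L2*. It was 2.04 for *AT4G18425*, 1.72 for *AT2G05910*, 1.64 for *ASD2*, 1.61 for *CHI*, 1.51 for *AT1G54575*, 1.35 for *PYD4* and 1.14 for *CHS*. It was negative for *AT1G12010* at -2.83, *PA2* at -2.74, *AT3G56230* at -2.74, *AT5G14450* at -1.36 and *RCI2B* at -1.02. The calls of *CHI*, *CHS*, *AT5G14450*, *AT3G56230*, *RCI2B* and *PYD4* were lost in 15, 11, 9, 8, 8 and 7 of 23 alternatives, and those of the other 14 genes were kept in every alternative that gave a value.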

How the results depend on the processing

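Without a fold change minimum, 2414 genes were higher and 2367 lower in *myb107-2*, 2034 and 2223 in WT at 11 DAP+Cold, 2102 and 2382 in WT at 13 DAP, and 1772 and 1709 in WT at 11 DAP+Cold against 13 DAP. With DESeq2, 378 genes differed between the genotypes in their change, 72 of them among the 73 of edgeR, and the edgeR count lay between 26 and 108 when 1 library was left out. With the replicate number as a block, 1087 genes were higher and 945 lower in *myb107-2* and 78 differed from WT. Deviations of samples with the same number had correlations of -0.08, 0.07 and 0.02, so the numbers were not taken as pairs. A minimum of 10 counts in every library gave 852 and 813 genes. Leaving out genes listed at 0 in 1 library of a group whose other libraries hold at least 30 counts, an alternative chosen after seeing the data, gave 1056 and 964, and 72 that differed. Of 194 genes, 136 kept their direction and their side of the threshold in every alternative run. The sign turned, for genes that were not called, for *LHCB1.3* (log2 fold change -0.09 to 0.18), *LHCB1.1* (-0.25 to 0.12) and *RBCS1A* (-0.07 to 0.11) over the fits with 1 library left out. *XTH9* was not called with robust estimation (adjusted p = 0.064). The causes were not tested. With 3 libraries a group, counts under 3 in a library, or 0.0315 to 0.0529 CPM, could not be told from 0, a limit that covers counting error only.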
